A study of Mus musculus with 2 samples.

Results

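The genes described here are 9 genes of the serpin family or of the fibrinolytic and clotting systems, chosen by symbol from the 32285 genes counted. They are the serpin genes Serpinb2, Serpine2, Serpinf1 and Serpinh1, the plasminogen activators Plat and Plau, the urokinase receptor Plaur, tissue factor (F3) and thrombomodulin (Thbd). They were picked because their levels had been seen to differ between the groups or cells below, so all their levels are given as a description and none was tested. They were measured in cultured aortic vascular smooth muscle cells (VSMCs) of C57BL/6 mice, bought as primary cells and used within the first passages. The cultures were of young cells, from mice of 12 weeks, of old cells, from mice of 58 to 78 weeks, of young cells exposed to 100 nM angiotensin II (AngII) over 48 h, and of old cells carrying an siRNA against Piezo1 (20 nM by the labels). Each group was marked with its own TotalSeq-A hashtag antibody, and the groups were then mixed and sequenced as 1 droplet library. Each group is thus 1 culture, and intervals cover counting error only, not the spread between cells, cultures or animals. Old cells that had received a control siRNA are not among the labelled groups, so transfection and siRNA cannot be told apart in the last group.

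A barcode was taken as a cell when it held at least 200 genes and at least 2217.8 gene UMIs (unique molecular identifiers, each standing for 1 captured RNA molecule), and 13045 barcodes passed. A cell was given tag n when only hashtag n lay above its cutoff (36, 52, 61 and 41 UMIs for tags 1 to 4). Tag 1 held 3144 cells, tag 2 held 497, tag 3 held 1500 and tag 4 held 1529, with 5577355 to 24120561 gene UMIs per tag, while 5307 cells (40.7%) had no tag and 1068 had more than 1. The own hashtag was at least 3 times the next in 2649, 179, 1334 and 482 cells of tags 1 to 4. Its median count was 364, 76, 113 and 67 UMIs, so cells of tags 2 and 4 were assigned less clearly than those of tags 1 and 3. The study's schematic numbers the groups young 1, old 2, young + AngII 3 and old + siPiezo1 4, but neither its text nor the labels state which tag marked which group, so the tag stands beside each value. The siRNA target Piezo1 was measured at 71.6 CPM (UMIs per 1000000 gene UMIs) in tag 1, 89.6 in tag 2, 108 in tag 3 and 86.9 in tag 4, so its level does not check the label of tag 4. The label VSMC was checked by 9 smooth muscle markers, 6 of them at 10 CPM or more, which summed to 1650 to 3172 CPM per tag. Of these, the 5 contractile genes (Acta2, Tagln, Myl9, Cnn1 and Myh11) summed to 872, 1669, 1053 and 656 CPM in tags 1 to 4. The 6 fibroblast markers, 3 of them at 10 CPM or more, summed to 525 to 749 CPM. In tag 4 they were at 749 CPM, above its contractile sum. The 8 epithelial or mesothelial markers summed to 16.1 to 51.7 CPM. The 7 endothelial markers summed to 3.75 to 8.42 CPM with Cdh5, Tek, Vwf, Cldn5 and Tie1 under 1 CPM over all cells, the 7 macrophage markers to 6.77 to 12.5 CPM and the 4 platelet markers to 2.15 to 4.89 CPM. Other properties also differed between tags: 8 interferon response genes summed to 3026 CPM in tag 1 and 86.8 to 311 CPM in the others, and the median share of mitochondrial UMIs was 0.224% in tag 3 and 1.08% to 1.86% in the others. Cells with Y-linked and no Xist UMIs made up 54.1% of tag 1 and 55.5% of tag 3 but 19.5% of tag 2 and 13.8% of tag 4, and cells with Xist and no Y-linked UMIs made up 63.0% of tag 2 and 66.8% of tag 4 but 4.90% of tag 1 and 6.27% of tag 3. Age and the sex of the source cells therefore cannot be told apart over all cells, and the members past 1.5-fold are also given within these kinds of cells.

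Plasminogen circulates as an inactive precursor and is cut to plasmin, a protease that dissolves fibrin and degrades matrix, by tissue-type (Plat) or urokinase-type (Plau) plasminogen activator. Plaur holds urokinase at the cell surface, and serpins such as plasminogen activator inhibitor 2 (Serpinb2) and protease nexin 1 (Serpine2) trap activators or thrombin in inactive complexes. The other serpin genes of the set encode no protease inhibitor: pigment epithelium-derived factor (Serpinf1), a secreted antiangiogenic factor, and HSP47 (Serpinh1), a chaperone that binds procollagen in the endoplasmic reticulum. Tissue factor is the cell surface trigger of clotting, and thrombomodulin binds thrombin and turns it towards activation of protein C.

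All 9 members were found once by symbol, and the annotation (GENCODE M21, GRCm38, looked up by Ensembl identifier) lists each as a protein-coding gene. Serpine2 lies at chr1:79794197-79861180 on the minus strand and Serpinb2 on the same chromosome at chr1:107511423-107535478 on the plus strand. Plaur is at chr7:24462484-24475968 (plus) and Serpinh1 at chr7:99345376-99353239 (minus). F3 is at chr3:121723537-121735048 (plus), Thbd at chr2:148404466-148408188 (minus), Plat at chr8:22757727-22782844 (plus), Serpinf1 at chr11:75409769-75422701 (minus) and Plau at chr14:20836660-20843385 (plus).

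RefSeq promoter windows (GRCm38.p6) were on hand for 6 of the 9 members, namely Serpinb2, Serpine2, Serpinf1, Serpinh1, Plaur and F3. The 250 bases before the start were searched on both strands for the AP-1 motif TGANTCA, the TATA box TATAAA, the GC box GGGCGG and the CArG box. Serpinb2, Plaur and F3 held the AP-1 motif, which 6.75% of 32851 windows of the same length hold, and they are printed 5′ to 3′ on the strand of the gene because they share it, with AP-1 and TATA matches in capitals:
Serpinb2 (chr1:107511173-107511422, plus): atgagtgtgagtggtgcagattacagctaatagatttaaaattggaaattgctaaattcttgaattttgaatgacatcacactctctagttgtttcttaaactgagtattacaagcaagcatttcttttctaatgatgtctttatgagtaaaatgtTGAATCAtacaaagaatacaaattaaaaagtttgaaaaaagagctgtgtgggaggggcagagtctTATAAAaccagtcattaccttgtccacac
Plaur (chr7:24462233-24462482, plus): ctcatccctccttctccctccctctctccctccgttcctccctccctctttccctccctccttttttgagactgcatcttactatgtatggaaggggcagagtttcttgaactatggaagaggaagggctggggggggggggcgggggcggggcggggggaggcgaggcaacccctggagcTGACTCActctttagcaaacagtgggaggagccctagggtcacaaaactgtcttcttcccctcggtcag
F3 (chr3:121723287-121723536, plus): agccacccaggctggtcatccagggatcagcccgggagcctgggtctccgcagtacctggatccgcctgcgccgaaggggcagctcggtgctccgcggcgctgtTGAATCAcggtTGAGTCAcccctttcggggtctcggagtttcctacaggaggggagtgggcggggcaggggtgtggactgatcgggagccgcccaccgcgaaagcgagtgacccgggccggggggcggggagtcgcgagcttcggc
For Serpinb2, with a pair of annotated starts, the window before the upstream start is printed. The AP-1 match of Serpinb2 began 94 bases before the start and that of Plaur 69 bases before it, while F3 held a pair of matches that began at 146 and 135 bases. Of the 6 members only Serpinb2 held the TATA box, 29 bases before its start, against 12.4% of all windows. The GC box, which 32.7% of all windows hold, was in the windows of Serpine2, Serpinh1, Plaur and F3. None of the 6 held the CArG box of smooth muscle genes (1.47% of all windows). A match is a description of letters, and no binding was measured.

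Across the 4 tags the members fell into several patterns, which the plot of levels by hashtag shows. Serpinb2 and Thbd were highest in tag 3 (young + AngII), Serpine2 and Plau were high in tags 2 and 4 (old and old + siPiezo1), Serpinh1 was high in tags 1 and 3, and Serpinf1, Plat and F3 were highest in tag 1 (young).

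**Figure D1:**
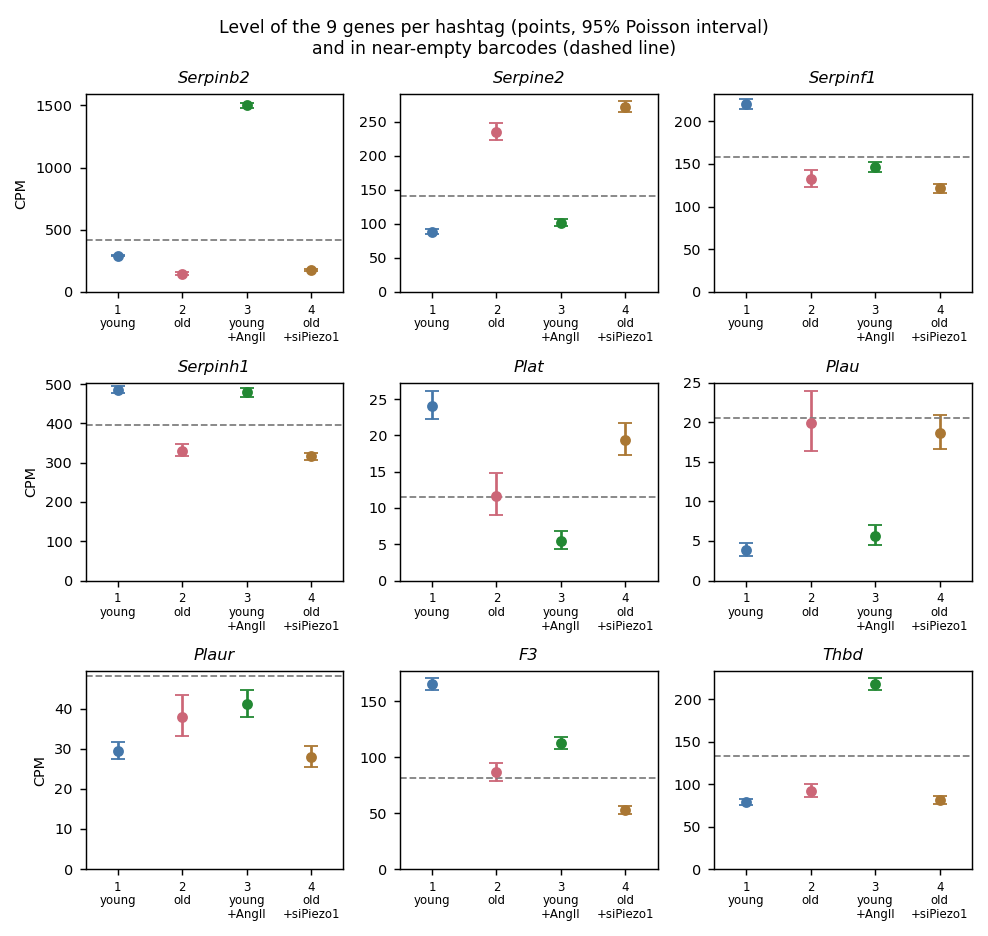
CPM of the 9 members (y axis, each panel from 0) in the cells of tags 1 to 4 (x axis), with exact Poisson 95% intervals, and the level in near-empty barcodes of 1 to 100 UMIs as a dashed line. Serpinb2 in tag 3 lies far above the other tags, and Serpine2 and Plau are high in tags 2 and 4.

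Serpinb2, the intracellular and secreted inhibitor of urokinase, was at 293 CPM (286 to 299.8) for tag 1, 146 (136 to 157) for tag 2, 1499.6 (1480.0 to 1519) for tag 3 and 177 (170.3 to 183) for tag 4. Its order was tag 3, tag 1, tag 4 and tag 2, and no 2 of the intervals overlapped. These intervals leave out the spread between cells and are therefore too narrow for it. In cells thinned to 5000 UMIs, the variance of Serpinb2 UMIs was 4.10, 5.32, 6.43 and 7.23 times the mean in tags 1 to 4. The order of tags 4 and 2 turned with the choice of cells, since their ratio of 1.21 became 0.755 (0.656 to 0.870) when the own hashtag had to be at least 3 times the next and 0.941 (0.843 to 1.05) in cells with 1% to 15% mitochondrial UMIs. Untagged cells were at 394 CPM. The level in near-empty barcodes, 422 CPM, exceeded that of tags 1, 2 and 4. If 10% of the UMIs of a cell of 5000 UMIs were free RNA, 19.0% of cells would hold a Serpinb2 UMI from that source, and its true share was not measured.

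Serpine2, which inhibits thrombin and both plasminogen activators, was at 88.8 CPM (85.1 to 92.6) for tag 1, 235 (223 to 249) for tag 2, 102 (97.1 to 107) for tag 3 and 273 (265 to 281) for tag 4. The levels of tags 2 and 4 were thus well above those of tags 1 and 3. Serpinf1 was at 219.9 CPM (214 to 226) for tag 1, 133 (123 to 143) for tag 2, 146 (139.9 to 152) for tag 3 and 121 (116 to 127) for tag 4. Tag 1 stood above the rest for this gene, and the intervals of tags 2 and 3 and those of tags 2 and 4 overlapped. Serpinh1, the collagen chaperone, was at 485 CPM (477 to 494) for tag 1, 331 (316 to 346) for tag 2, 479.6 (469 to 491) for tag 3 and 316 (308 to 325) for tag 4. Tags 1 and 3 overlapped, and so did tags 2 and 4. Near-empty barcodes were at 141 CPM for Serpine2, above tags 1 and 3, and at 158 for Serpinf1, above tags 2 to 4. For Serpinh1 they were at 395 CPM, above tags 2 and 4.

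The activators were sparse. Plat was at 24.1 CPM (22.2 to 26.2) for tag 1, 11.7 (8.99 to 14.9) for tag 2, 5.49 (4.37 to 6.82) for tag 3 and 19.4 (17.3 to 21.7) for tag 4, from 582, 65, 82 and 313 UMIs. Plau was at 3.90 CPM (3.15 to 4.77) for tag 1, 19.9 (16.4 to 24.0) for tag 2, 5.62 (4.49 to 6.96) for tag 3 and 18.7 (16.6 to 20.9) for tag 4, from 94, 111, 84 and 301 UMIs. The lowest tag therefore differed between them: tag 3 for Plat, and tags 1 and 3, whose intervals overlapped, for Plau. At 9.71 CPM over all tagged cells Plau was the only member under 10 CPM, and 8 of the 9 members passed that minimum. Plaur was at 29.5 CPM (27.4 to 31.8) for tag 1, 38.0 (33.1 to 43.5) for tag 2, 41.2 (38.0 to 44.6) for tag 3 and 27.9 (25.4 to 30.6) for tag 4. Its highest and lowest tags differed by the smallest ratio among the 9 members, with tags 1 and 4 overlapping and tags 2 and 3 overlapping, and all 4 levels lay below the 48.2 CPM of near-empty barcodes. The same was true of Plau, at 20.5 CPM in near-empty barcodes. For Plat near-empty barcodes were at 11.5 CPM, above tag 3 only.

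F3 was at 165 CPM (160.2 to 170.5) for tag 1, 86.4 (78.9 to 94.5) for tag 2, 113 (107 to 118) for tag 3 and 52.7 (49.2 to 56.4) for tag 4, and no intervals overlapped. Near-empty barcodes were at 81.1 CPM for F3, above tag 4 only. Thbd, the anticoagulant counterpart of tissue factor, was at 79.2 CPM (75.7 to 82.9) for tag 1, 92.2 (84.4 to 100.5) for tag 2, 218 (210.1 to 225) for tag 3 and 80.9 (76.6 to 85.4) for tag 4. Tag 3 stood alone for Thbd, while tag 4 overlapped with tags 1 and 2, and near-empty barcodes, at 133 CPM, exceeded every tag but tag 3. Endothelial cells are the usual main source of thrombomodulin in a vessel. The endothelial markers Cdh5, Tek, Vwf, Cldn5 and Tie1 were under 1 CPM over all cells, and the 7 listed summed to 3.75 to 8.42 CPM per tag, as given above.

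The young and old cultures were compared through tags 2 and 1. Serpine2 was 2.65 times as high in tag 2 (95% counting interval 2.47 to 2.84) and Plau 5.11 times (3.85 to 6.79). Plat was at 0.483 times the level of tag 1 (0.368 to 0.625), Serpinb2 at 0.500 (0.464 to 0.537), F3 at 0.523 (0.475 to 0.575) and Serpinf1 at 0.603 (0.558 to 0.652), while Serpinh1 at 0.682, Plaur at 1.29 and Thbd at 1.16 lay within 1.5-fold. Thus 2 of the 9 members were at least 1.5-fold higher and 4 at least 1.5-fold lower, where 7.93% and 10.5% of the 8463 genes of at least 10 CPM were. Without Plau, which is under that minimum, 1 of 8 was higher and 4 were lower. The median ratio was 0.682 over the members and 1.02 over all these genes. Within cells with Y-linked and no Xist UMIs the ratio of Serpine2 was 2.23 (1.88 to 2.62), but within cells with Xist and no Y-linked UMIs it was 1.16 (1.03 to 1.32), since the 154 such cells of tag 1 were at 233 CPM against 68.0 CPM in its Y-linked cells. F3 was at 0.530 times the tag 1 level in the first kind of cell and 0.745 in the second, and Serpinb2 at 0.565 and 0.715. Serpinf1 was at 0.614 and 0.724 and Plat at 0.412 (0.217 to 0.714) and 0.493 (0.308 to 0.793), so F3, Serpinb2 and Serpinf1 lay within 1.5-fold in the second kind. Plau kept the larger difference in both kinds, at 4.20 (2.21 to 7.59) and 2.28 (1.34 to 4.10). The part of the source cells' sex in the contrast of Serpine2 was not tested. Cells of the rarer kind in a tag, such as the 154 of tag 1 (4.90% of its cells), were not checked for wrong tags. Whether they were cells of another group was therefore not tested either.

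**Figure D2:**
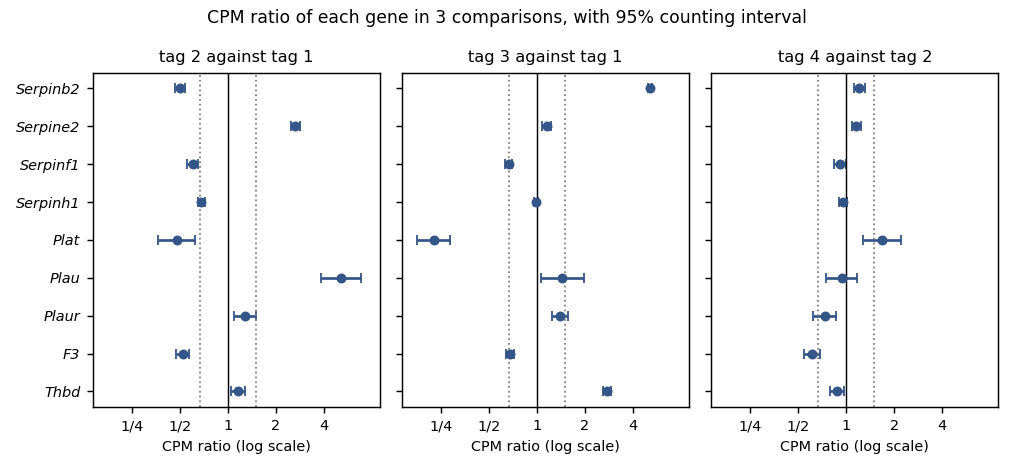
CPM ratio (x axis, log scale) of each of the 9 members (y axis) in the comparisons of tag 2 with tag 1, tag 3 with tag 1 and tag 4 with tag 2; points are ratios, bars are exact 95% counting intervals, the solid line marks 1 and the dotted lines 1.5-fold either way. Serpinb2 and Thbd stand out upwards for tag 3 against tag 1, Plau and Serpine2 for tag 2 against tag 1, and most points of tag 4 against tag 2 lie between the dotted lines.

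AngII-treated and untreated young cultures were compared through tags 3 and 1. Serpinb2 was 5.12 times as high in tag 3 (4.99 to 5.26) and Thbd 2.75 times (2.59 to 2.91). Plat was at 0.228 times the level of tag 1 (0.178 to 0.287) and Serpinf1 at 0.664 (0.631 to 0.698), and F3 at 0.682, Serpinh1 at 0.988, Serpine2 at 1.15, Plaur at 1.40 and Plau at 1.44 lay within 1.5-fold. So 2 members were past 1.5-fold upwards and 2 downwards, where 6.89% and 7.89% of all genes were, with a median ratio of 1.15 over the members and 1.03 over all genes. Both tags held mostly cells with Y-linked UMIs. Among these the ratio was 5.25 for Serpinb2 (5.07 to 5.43) and 2.97 for Thbd (2.76 to 3.20), and in the few cells with Xist and no Y-linked UMIs it was 4.60 for Serpinb2 (3.99 to 5.31) and 1.35 for Thbd (1.06 to 1.73). Plat was at 0.173 (0.121 to 0.240) in the first kind of cell and 0.508 (0.248 to 0.978) in the second, and Serpinf1 at 0.633 (0.591 to 0.677) and 0.823 (0.670 to 1.01), so Thbd and Serpinf1 lay within 1.5-fold in the second kind, of which tag 3 held 94 cells. Because tag 3 held few mitochondrial UMIs, the levels were also set side by side within classes of that share. In cells with under 1% mitochondrial UMIs Serpinb2 was at 1577 CPM in tag 3 and 338 CPM in tag 1, and in cells with 1% or more it was at 1256 and 247 CPM, so tag 3 was far above tag 1 in both classes. Thbd was at 217 and 92.5 CPM in the first class and at 219.98 and 65.7 CPM in the second.

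The cultures labelled old + siPiezo1 and old were compared through tags 4 and 2. Only Plat was past 1.5-fold upwards, at 1.67 (1.27 to 2.21), and only F3 downwards, at 0.610 (0.545 to 0.684), where 1.8% and 1% of all genes were. The other members lay between 0.735 (Plaur) and 1.21 (Serpinb2), with a median ratio of 0.939 over the members and 1.01 over all genes. F3 was at 0.487 (0.421 to 0.563) within cells with Xist and no Y-linked UMIs and at 0.768 (0.599 to 0.989) within cells with Y-linked and no Xist UMIs. Plat was at 1.65 (1.17 to 2.37) in the first and 1.72 (0.914 to 3.48) in the second. The 9 smooth muscle markers summed to 3172 CPM in tag 2 and 1650 CPM in tag 4, in the same direction as F3. They summed to 2518 CPM in tag 1 and 3102 CPM in tag 3. Against tag 1 they were thus higher in tags 2 and 3, where F3 was lower. Their part in the F3 ratio was not tested. The Plat ratio was 1.36 when the hashtag cutoffs were multiplied by 1.5 and 1.25 when the own hashtag had to be at least 3 times the next, so it lay within 1.5-fold there.

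**Figure D3:**
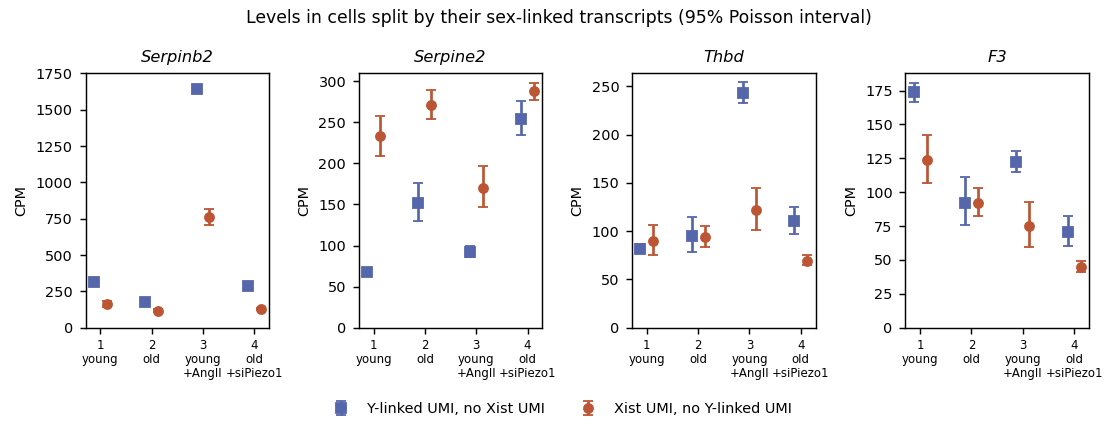
CPM (y axis, from 0) of Serpinb2, Serpine2, Thbd and F3 per tag (x axis) in cells with Y-linked and no Xist UMIs (squares) and cells with Xist and no Y-linked UMIs (circles), with exact Poisson 95% intervals. Serpinb2 is highest in tag 3 in both kinds of cell, and Serpine2 is higher in the cells with Xist UMIs in every tag.

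The spread over cells was read after drawing 5000 UMIs from each cell, which kept 476 to 2397 cells per tag. Serpinb2 was detected in 50.5% of such cells of tag 1, 25.2% of tag 2, 90.1% of tag 3 and 25.2% of tag 4, and 5 or more UMIs were found in 9.60%, 4.83%, 61.1% and 5.23% of them. Free RNA at 10% of UMIs would give 19.0% of cells a Serpinb2 UMI, not far below the detection shares of tags 2 and 4. The tenth of cells with the most Serpinb2 UMIs held 30.1% of them in tag 3 and 50.4% in tag 1, but 76.0% in tag 2 and 77.3% in tag 4. The level was therefore high in most cells of tag 3 and concentrated in a minority of cells in tags 2 and 4. Before thinning, Serpinb2 in tag 4 was at 284 CPM in cells with Y-linked and no Xist UMIs. It was at 129 CPM there in cells with Xist and no Y-linked UMIs, and in tag 2 at 177 and 118 CPM. Whether the cells high in Serpinb2 in tags 2 and 4 were cells of another group was not tested. Serpine2 was detected in 28.3%, 57.8%, 29.5% and 66.1% of cells of tags 1 to 4, Thbd in 27.0%, 29.2%, 56.9% and 27.9%, and F3 in 43.7%, 26.3%, 31.9% and 16.7%. For Plau the shares were 1.67% (1.19% to 2.27%), 8.82%, 2.57% (1.79% to 3.55%) and 8.27%. Free RNA at 10% of UMIs would give 1.02% of cells a Plau UMI. The shares of tags 1 and 3 lay above that level but closer to it than those of tags 2 and 4. The true share of free RNA was not measured. Plat was detected in 11.3%, 5.46%, 2.71% and 9.26% of cells.

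**Figure D4:**
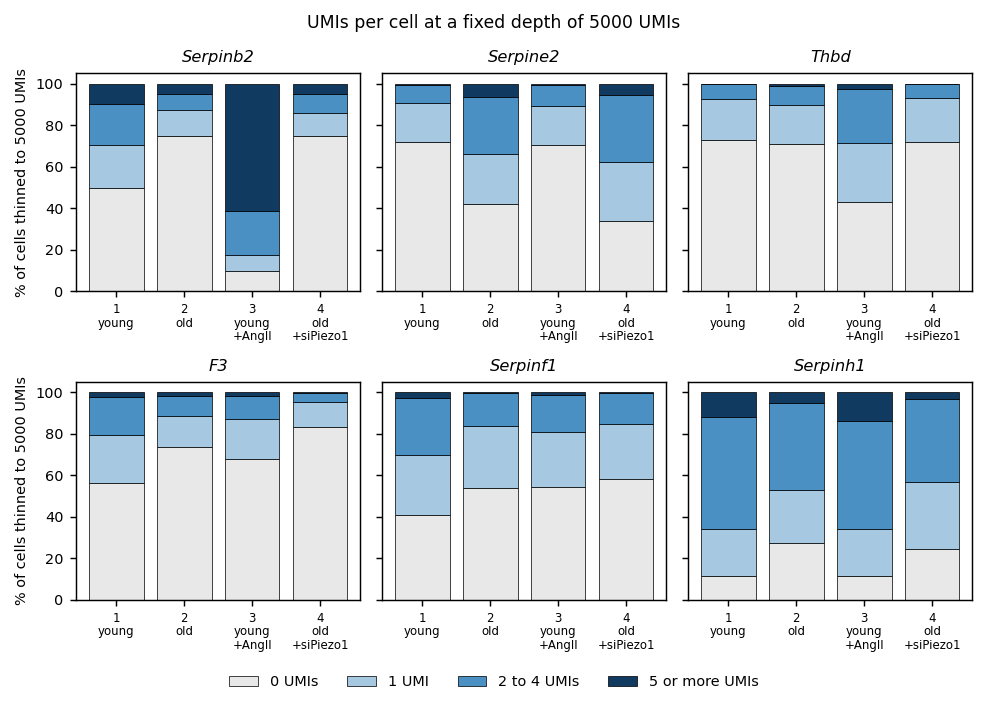
Share of cells (y axis, %) with 0, 1, 2 to 4 and 5 or more UMIs of 6 members per tag (x axis), in cells thinned to 5000 UMIs. In tag 3, 61.1% of cells held 5 or more Serpinb2 UMIs, against 4.83% to 9.60% in the other tags.

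Members were rarely alike from cell to cell. The correlation of thinned levels was computed for pairs with at least 1 member at 50 CPM or more, which leaves out pairs among Plat, Plau and Plaur. Averaged over the 4 tags, it ran from -0.109 (Serpine2 with F3) to 0.0899 (Serpinb2 with Thbd), which are weak values in sparse counts. Detection of 2 members in the same cell stayed close to the product of their shares for the larger counts: Plaur with Serpinb2 in 1.01 to 1.11 times and F3 with Thbd in 1.01 to 1.24 times as many cells as the product. Plat with Serpine2, in 14 to 92 cells per tag, was at 1.06 to 1.28 times the product. Plau with Serpine2 ran from 0.580 (tag 3, 6 cells) to 1.77 (tag 1, 20 cells). Plau with Serpinb2 ran from 0.578 (tag 4, 17 cells) to 0.983 (tag 3, 31 cells). Plau and Plaur, the urokinase and its receptor, were found together in 2, 5, 7 and 23 cells of tags 1 to 4. Their ratios to the product were 0.483, 0.914, 1.11 and 1.69, on counts too few to read an order.

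Among the 3277 genes of at least 50 CPM, those most like Serpinb2 across cells were Cryab, a small heat shock protein, with a mean correlation of 0.349 (0.173 to 0.497 over the 4 tags), Timp1, an inhibitor of metalloproteinases, with 0.274, and Lox, the collagen crosslinking oxidase, with 0.248. Most like F3 were the smooth muscle genes Acta2 with 0.233 and Tagln with 0.228, and Ccn2 with 0.214. For Serpine2 it was Spp1 (osteopontin) with 0.209. The other 6 members had no gene at 0.2 or more, and the nearest was Sparc for Serpinh1 with 0.1995. These are correlations over cells of the same library, which share depth and free RNA.

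The cells of each tag were next ranked by their thinned UMIs of 5 contractile genes (Acta2, Tagln, Myl9, Cnn1 and Myh11) and split into 4 bins of equal size. The lowest bin of every tag held only cells with 0 such UMIs, as did the second bin of tag 4, and cells of equal count were split in the order of the file. F3 was higher in the highest than in the lowest bin of every tag, with ratios of 2.10 (1.84 to 2.39) for tag 1, 4.16 (2.81 to 6.32) for tag 2, 3.23 (2.57 to 4.08) for tag 3 and 4.03 (2.87 to 5.77) for tag 4. It was at 243 CPM in the highest bin of tag 1, 224 of tag 2, 191 of tag 3 and 98.0 of tag 4. The bins were cut within each tag, so the highest bins were not matched between tags. They held a mean of 13.8, 26.1, 16.5 and 10.1 contractile UMIs per cell in tags 1 to 4, and tag 4 was lowest in both. Serpine2 was lower in the highest than in the lowest bin of tags 2 and 4, with ratios of 0.473 (0.362 to 0.613) and 0.515 (0.449 to 0.589), and was at 0.863 and 0.780 in tags 1 and 3. Serpinb2 was 2.08 times (1.53 to 2.86) and 2.26 times (1.93 to 2.65) as high in the highest bin of tags 2 and 4 but at 0.889 and 1.03 in tags 1 and 3. Thbd was at 2.18 in tag 2, 1.47 in tag 4, 1.08 in tag 1 and 0.789 in tag 3, and Serpinh1 between 1.23 and 1.48 in all tags. The number of members at least 1.5-fold higher in the highest bin was 2 in tag 1, 5 in tag 2, 3 in tag 3 and 3 in tag 4, where 2.11%, 14.6%, 3.75% and 7.16% of all genes were. Each of these counts includes Plau, which is under 10 CPM and rests on 9 to 47 UMIs in the highest and 5 to 27 in the lowest bin, with intervals that held 1 in tags 1 to 3, and without it they were 1, 4, 2 and 2. The 4 of tag 2 still included Plaur at 1.92 (0.947 to 4.09), on 25 against 13 UMIs, and the 2 of tag 3 were F3 and Serpinf1 at 1.63 (1.37 to 1.95). The number at least 1.5-fold lower was 0, 1, 1 and 2, where 4.04%, 20.5%, 8.2% and 8.22% were, and the 1 of tag 3 was Plat, on 6 against 9 UMIs. The 2 of tag 4 were Serpine2 and Plat at 0.648 (0.399 to 1.04), where the interval held 1. The highest bins held cells of greater depth before thinning in tags 2 and 4, with medians of 12170 and 11943 UMIs against 9774 and 9394.5 in the lowest.

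**Figure D5:**
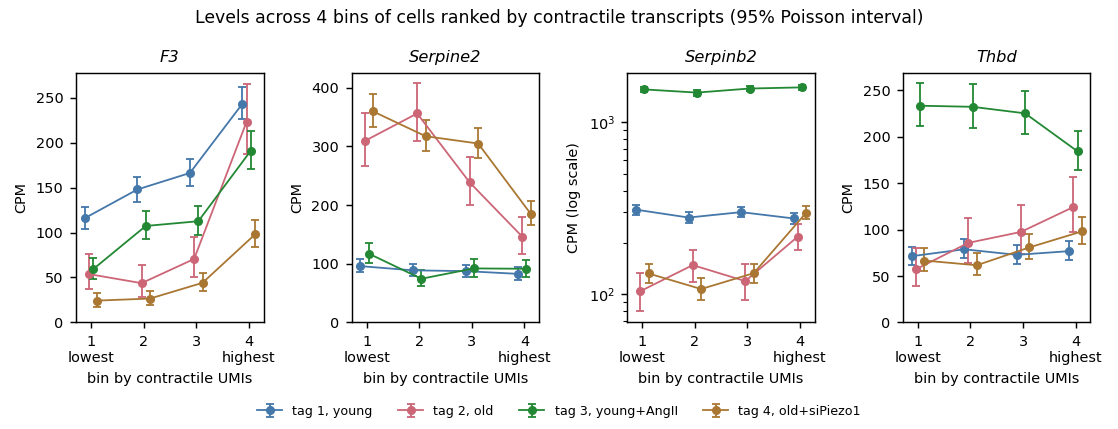
CPM (y axis, on a log scale for Serpinb2 and from 0 for the others) of F3, Serpine2, Serpinb2 and Thbd in 4 equal bins of thinned cells ranked by contractile UMIs (x axis, lowest to highest), 1 line per tag, with exact Poisson 95% intervals. The lowest bin of every tag and the second of tag 4 hold only cells with 0 contractile UMIs. F3 is highest in the highest bin of every tag, and Serpine2 is lowest there in tags 2 and 4.

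Ranked in the same way by 8 genes of dividing cells (such as Mki67 and Top2a), Plaur was 2.30 times (1.64 to 3.28) as high in the highest as in the lowest bin of tag 1 and 1.81 times (1.21 to 2.73) in tag 4, and it was at 1.47 (0.727 to 3.04) in tag 2 and 1.30 (0.940 to 1.79) in tag 3, where the intervals held 1. Serpinb2 was at 0.748 in tag 1, 0.506 in tag 2 and 0.552 in tag 4, and at 0.969 (0.917 to 1.02) in tag 3. F3 was lower in the dividing bin of tag 1, at 0.683 (0.600 to 0.777), and of tag 2, at 0.500 (0.329 to 0.747), and was at 1.26 (1.02 to 1.55) in tag 3. In tag 4 it was at 0.788 (0.562 to 1.10), where the interval held 1. The other members and the shares over all genes are not given for this ranking. In tag 3, where Serpinb2 was high in most cells, the highest and lowest bins thus differed little in Serpinb2 for both gene lists. The same held in tag 1 for the contractile list, at 0.889.

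Within tag 1, whose cells carried the interferon response, 2237 thinned cells held at least 3 UMIs of the 8 interferon genes and 59 held none. Serpine2 was at 79.3 CPM (74.2 to 84.7) in the first and 261 (206 to 326) in the second, and Plau at 2.77 (1.88 to 3.93) and 30.5 (14.0 to 57.9). Serpinf1 was at 231 CPM (222 to 239.8) and 125 (88.3 to 173). The 59 cells therefore stood near the levels of tags 2 and 4 for Serpine2, Plau (on 9 UMIs) and Serpinf1. Serpinb2 at 403 CPM (334 to 483) and Serpinh1 at 447 CPM (374 to 531) did not. In these cells F3 and Thbd were each at 115 CPM (79.8 to 161) and Plaur at 44.1 (23.5 to 75.4). Plat was at 23.7 CPM (9.54 to 48.9), on 7 UMIs. The same split of the other tags gave Serpine2 ratios of the first to the second kind of cell of 0.514 (0.279 to 0.869, on 14 UMIs in the first) in tag 2. They were 0.634 (0.506 to 0.790) in tag 3 and 0.946 (0.742 to 1.19) in tag 4, so a lower Serpine2 level was not particular to tag 1. Serpinb2 was at 0.711 in tag 1 but at 1.36 (0.764 to 2.26), 1.40 and 2.55 in tags 2 to 4. The shares over all genes are not given for this split. Whether the 59 cells were cells of another group with a wrong tag was not tested.

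Other genes of the plasminogen system were taken from a list of 30, of which 19 reached 10 CPM. The median ratio of these 19 was 0.879 for tag 2 against tag 1, 0.969 for tag 3 against tag 1 and 0.992 for tag 4 against tag 2. In tag 2 against tag 1, 3 (15.8%) were past 1.5-fold upwards and 8 (42.1%) downwards, against 7.93% and 10.5% of all genes: Hgf, a growth factor related in structure to plasminogen, was at 2.10 times, Serpini1 at 1.53 and Thbs1 at 1.51, while Serping1, the C1 inhibitor, was at 0.147 and Serpinb9, a granzyme B inhibitor, at 0.246. In tag 3 against tag 1, 4 (21.1%) were upwards and 3 (15.8%) downwards, against 6.89% and 7.89% of all genes. Among those upwards were Thbs1 at 2.23 times and the integrin subunit Itga5 at 1.76, and the lowest were Serpinb9 at 0.214, Serping1 at 0.331 and the gelatinase Mmp2 at 0.575. In tag 4 against tag 2, Hgf at 2.20 and Mmp2 at 1.68 were upwards and Klk8, a secreted protease, was downwards at 0.601, against 1.8% and 1% of all genes. Plasminogen itself (Plg) held 0 UMIs in the tagged cells.

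Of 23 coagulation genes 9 reached 10 CPM, with median ratios of 0.890, 0.983 and 0.961 in the same 3 comparisons. The receptor of protein C, Procr, was at 1.62 times in tag 2 and 1.52 in tag 3 against tag 1, and Tfpi2, a Kunitz-type inhibitor, at 0.563 and 2.09. Gas6, a vitamin K-dependent ligand, was at 0.578 and 0.563. Thus 1 gene was past 1.5-fold upwards and 2 downwards for tag 2, 2 upwards and 1 downwards for tag 3, and none in tag 4 against tag 2, which among 9 genes are counts too small to set apart from the shares of all genes given above. All 21 genes of collagen and its folding, the clients and partners of Serpinh1, reached 10 CPM. In tag 2 against tag 1, 12 (57.1%) were past 1.5-fold downwards and 0 upwards, against 10.5% and 7.93% of all genes, with a median ratio of 0.629 and the lowest values for Col3a1 at 0.159, P4ha2 at 0.300 and Col1a2 at 0.337, and Serpinh1 was at 0.682. In tag 3 against tag 1 the median was 0.894, and 5 (23.8%) were downwards and 0 upwards, against 7.89% and 6.89% of all genes, led by Col3a1 at 0.224, Col1a2 at 0.487 and P4ha1 at 0.547, while Serpinh1 was at 0.988. In tag 4 against tag 2 the median was 1.03, and Col3a1 was upwards at 1.64 and none was downwards.

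The files list 62 serpin genes, of which 58 are no members. Of these, 20 held no UMI in the tagged cells and 10 reached 10 CPM, with median ratios of 0.457 in tag 2 against tag 1, 0.520 in tag 3 against tag 1 and 1.19 in tag 4 against tag 2. In tag 2 against tag 1, 8 of the 10 were past 1.5-fold downwards, against 10.5% of all genes, led by Serpinb1a at 0.0973, Serpina3n at 0.123 and Serping1 at 0.147, and only Serpini1 was upwards. In tag 3 against tag 1, 6 were downwards, against 7.89% of all genes, led by Serpina3g at 0.192. In tag 4 against tag 2, 3 of the 10 were upwards (Serpina3n, Serpinb1a and Serpina3g), against 1.8% of all genes. Only Serpinb9b was downwards there, against 1% of all genes. The 8 interferon response genes were highest in tag 1, as given above, and their part in the lower serpin levels of the other tags was not tested.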

How the data were processed

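The deposited values are raw UMI counts of genes and 4 hashtags, which the authors made with Cell Ranger without a filter on cells, in 1 droplet library (3′ v3.1 kit) and its hashtag library. Build and annotation: not given in the sources used here. The members and gene lists were chosen with earlier results of these data known. CPM is a gene's summed UMIs over the cells of a tag per 1000000 gene UMIs, with exact Poisson 95% intervals. Ratios have exact binomial intervals of both counts. UMI counts per cell were compared after thinning to 5000 UMIs without replacement (fixed seed). To set the UMI minimum of a cell, the 99th percentile of UMIs over the 10000 deepest barcodes was divided by 10. Cells with more than 1 hashtag were left out, and no doublet caller was run. With 1 culture per group no test was made. Named genes were the 9 members, Piezo1, marker genes, and the 3 largest ratios in each direction of each list at 10 CPM or more, except 1 that is not reported here; genes like a member were the 3 highest at a mean correlation of 0.2 or more. The ratio was tested on simulated counts, and the thinning on the measured cells of tag 2. Python 3.11.15, numpy 2.4.6, scipy 1.17.1 and pandas 2.3.3 were used. The alternatives were other hashtag rules, depth and mitochondrial limits, thinning, other scalings, subtraction of free RNA, and cells split by sex-linked transcripts; cells with under 1% mitochondrial UMIs were added after seeing the data.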

Additional observations from a re-analysis of the deposited data

How the results depend on the processing

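The 27 member ratios were recomputed under 12 alternatives, which gave 324 values: 14 lay on the other side of 1, 7 moved by over 1.5 times, and no ratio past 1.5-fold crossed 1. Counts of members past 1.5-fold moved as follows. For tag 2 against tag 1, cells with an Xist and no Y-linked UMI had 1 upwards (Plau) and 1 downwards (Plat), cells with 1% to 15% mitochondrial UMIs had 3 upwards (Plaur added), and cells with under 1% had 3 downwards, without Serpinb2. Serpinh1 was added downwards, which made 5, in cells with 1% to 15% mitochondrial UMIs, after subtraction of free RNA and in cells with a Y-linked and no Xist UMI. For tag 3 against tag 1, cells with an Xist and no Y-linked UMI had 1 upwards (Serpinb2), and cells with 1% to 15% mitochondrial UMIs had 4, with Plau and Plaur added. Plau was added, which made 3, under both stricter hashtag rules, after subtraction of free RNA, in cells with a Y-linked and no Xist UMI and in cells with under 1% mitochondrial UMIs, and Plaur after thinning. Serpinf1 lay within 1.5-fold, which left 1 member downwards, under both stricter hashtag rules, in cells with at least 5000 UMIs and in cells of 5000 to 20000 UMIs. It did so too in cells with an Xist and no Y-linked UMI, where F3 was downwards in its place. F3 was added downwards, which made 3, with median of ratios scaling and after subtraction of free RNA. In tag 4 against tag 2, both stricter hashtag rules left 0 members upwards, and cells with under 1% mitochondrial UMIs had 0 downwards. Cells with a Y-linked and no Xist UMI had 3 upwards (Serpinb2, Serpine2 and Plat) and Plaur downwards in place of F3. The cause was not tested. The ratio of Serpinb2 in tag 3 against tag 1 ranged from 4.60 to 5.81, that of Plat from 0.173 to 0.508, and that of Plau in tag 2 against tag 1 from 2.28 to 9.67, which rests on few UMIs. No paired analysis was possible because each group is 1 culture. Wrong hashtags, free RNA and doublets were not removed cell by cell. The intervals were widest where few UMIs or cells were compared, as for Plat and Plau.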
